A study of Mus musculus with 28 samples.

Results

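RNA of the CA1 field of the mouse hippocampus was sequenced in 10 wildtype libraries, which are described here by their level of Camk2d, the gene of the delta isoform of calcium/calmodulin-dependent protein kinase II. Levels are given as CPM, a gene's share of all counts in its library scaled to 1000000. The libraries were chosen by their Camk2d level: 5 wildtype libraries lay at or above 70 CPM (the high libraries) and 5 below it (the low libraries), out of 28 libraries in the series. All 10 came from wildtype littermates, 3 months old, that drank vehicle for 4 weeks. The other libraries came from CamkdeltaC transgenic mice of the same age, 9 given vorinostat, a histone deacetylase inhibitor, and 9 given vehicle. The tissue was cut out under a microscope, mice of both sexes were used, and the sources used here do not give the promoter of the transgene.

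Calcium/calmodulin-dependent protein kinase II is a holoenzyme built from alpha, beta, gamma and delta subunits, each from its own gene, and it is activated by calcium entering through glutamate receptors and calcium channels. In forebrain excitatory neurons the alpha and beta subunits dominate and act in synaptic plasticity, while the delta subunit is best known from heart muscle and is also made in several brain regions. CA1 borders on CA2, the dentate gyrus, the subiculum, the overlying cortex and, across the ventricle, the thalamus, so gene lists for several of these tissues are given together with those for the cell types within CA1.

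Camk2d (ENSMUSG00000053819; mm10 chromosome 3, 126596302 to 126846326, plus strand) was at 147, 93.8, 111, 87.3 and 106 CPM in the high libraries, which are wildtype vehicle replicates 1, 2, 6, 8 and 10. In the low libraries, replicates 3, 4, 5, 7 and 9, it was at 55.7, 47.2, 40.4, 44.5 and 49.3 CPM. These values chose the libraries and are a description. The lowest high library and the highest low library were at 87.3 and 55.7 CPM, and no wildtype library lay between them. The sets averaged 109 ± 23.2 CPM (high) and 47.4 ± 5.69 CPM (low; SD, n = 5 each), a mean difference of 1.19 on the log2 scale. Transgenic libraries spread over the same range, from 45.9 to 116 CPM with vorinostat (median 70.4) and from 42.6 to 105 CPM with vehicle (median 53.6; n = 9 each). Camk2d was left out of every test.

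**Figure D1:**
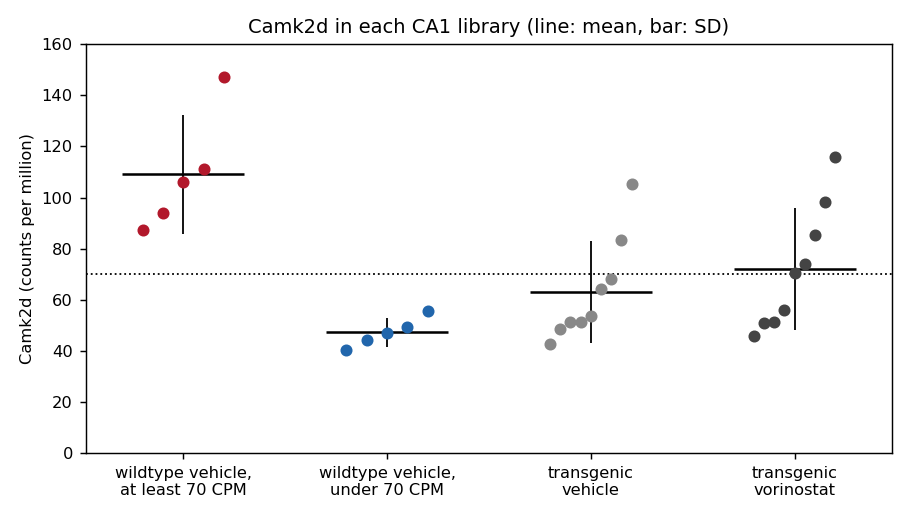
Camk2d level (CPM, linear axis from 0) in each library, with the mean as a line and the SD as a bar; the dotted line is the limit of 70 CPM. The 5 high wildtype libraries lie between 87.3 and 147 CPM and the 5 low ones between 40.4 and 55.7 CPM, while the transgenic libraries fill the range between.

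No library property examined separated the sets. Totals were 22282994 to 25828256 counts in the high and 20230085 to 33191857 counts in the low libraries (exact two-sided permutation p = 0.722 over all splits of 5 and 5, the smallest possible p being 0.00794). The mitochondrial share of counts, total hemoglobin transcripts, genes detected and the share of the 50 most abundant genes gave exact permutation p between 0.730 and 0.976. High library 2 stood apart, with 6.41% mitochondrial counts and 101 CPM of hemoglobin transcripts, against 2.84 to 4.11% and 19.5 to 33.0 CPM in the other wildtype libraries. Xist, the RNA of the inactive X chromosome, was over 100 CPM in 3 of 5 high and 3 of 5 low libraries. Within the high set these 3 held the most Camk2d, at least 106 CPM against at most 93.8 CPM in the other two, while in the low set they included both the highest and the lowest Camk2d level. With Xist as a covariate 322 genes were called higher and 160 lower in the test described next. Whether every library is from a mouse of its own is not stated, so the p-values speak of the spread among libraries only, part of which may be technical.

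Of 16584 genes tested with edgeR's quasi-likelihood test, 540 (3.26%) passed a Benjamini-Hochberg adjusted p of 0.05 between the high and low libraries. There were 347 genes higher (2.09%) and 193 lower (1.16%) in the high libraries, with median log2 fold changes of 0.64 and -0.45. The difference exceeded 1 in size on the log2 scale for 74 of the higher and 12 of the lower genes. Among all tested genes 881 (5.31%) had values that did not overlap between the sets, and 436 of the 540 called genes were among them. The count rested in part on single libraries: it was 193 higher and 73 lower without high library 1, 231 and 91 without high library 6, 180 and 48 without low library 4, and 222 and 80 without low library 7. Without high library 2 it rose to 492 higher and 223 lower. No called gene changed direction under any of these, which use the same libraries that chose the calls. Limma on the authors' deposited adjusted values called 0 genes, with 3262 at an unadjusted p under 0.05, so that every call named here was lost with it, and "held" below refers to the 18 alternatives computed from the counts.

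The leading higher genes included neuronal receptors, synaptic proteins and transcription factors. Car10, a carbonic anhydrase relative without catalytic activity that binds neurexins (ENSMUSG00000056158; mm10 chromosome 11, 93098028 to 93601749, plus strand), was at 65.3, 44.3, 56.8, 43.4 and 46.8 CPM in high libraries 1, 2, 6, 8 and 10, against 24.9, 20.6, 18.8, 21.5 and 20.8 CPM in low libraries 3, 4, 5, 7 and 9. Its sets lay well apart (log2 fold change 1.24, SE 0.112, edgeR adjusted p = 0.000112), and its order among the libraries followed that of Camk2d closely. Cbln1, a secreted organizer of synapses, varied more within the high set: it was at 25.9, 11.1, 19.5, 8.90 and 13.2 CPM there, against 3.93, 2.47, 4.76, 2.98 and 3.14 CPM in the low libraries. The sets did not overlap (log2 fold change 2.14, SE 0.260, edgeR adjusted p = 0.000647), and the 2 highest Cbln1 values belonged to high libraries 1 and 6, which also held the most Camk2d.

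None of the 15 leading higher genes overlapped between the sets, a description only, since their p between these same sets chose them. Of all tested genes 5.31% did not overlap, and of the called genes 80.7%. The 15 included Tshz2, a zinc finger transcription factor (1.37), Ddit4l, an inhibitor of mTOR signalling (1.25), and Cobl, an actin nucleator (1.25). Gsg1l, an auxiliary subunit of AMPA receptors (1.04), and Kcnj5, a subunit of G-protein-gated potassium channels, were further members. Grm8, a metabotropic glutamate receptor, was 0.77 higher, Ankrd34c 1.14 and Dok5, a docking protein of receptor tyrosine kinases, 0.97 on the log2 scale. Kcnj5 was at 1.60 to 2.61 CPM in the high and 0.278 to 0.562 CPM in the low libraries. The low libraries held few counts of it and it passed the filter through the high libraries. Its levels are therefore a description, with no fold given. Slc17a6, Mef2c and Drd1 were also among the 15 and are described with their lists. The call of 12 of the 15 held under each of these 18 alternatives, while Kcnj5, Ddit4l and Dok5 missed the threshold in the joint fit over all 28 libraries.

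The leading lower genes included proteins of CA1 and CA2 neurons and of dendrites. Ddn, dendrin, a postsynaptic protein whose mRNA is carried into dendrites, was at 1483, 2131, 1868, 2018 and 1851 CPM in the high libraries, against 2470.4, 2683, 2856, 2657 and 2545 CPM in the low libraries. Its sets did not overlap, and high library 1, with the most Camk2d, held the least Ddn (log2 fold change -0.52, SE 0.0899, edgeR adjusted p = 0.00561). Il16, the precursor of a cytokine that also has PDZ domains, was at 2.48, 2.38, 3.67, 4.34 and 3.11 CPM in the high and 5.75, 12.3, 11.99, 6.57 and 10.5 CPM in the low libraries (log2 fold change -1.58, SE 0.226, adjusted p = 0.00162). The others were Golm1, a Golgi membrane protein (-0.65), Frzb, a secreted Wnt antagonist (-0.96), Kcnip2, an auxiliary subunit of A-type potassium channels (-0.50), Gng7, a G-protein gamma subunit (-0.48), Icosl, a costimulatory ligand (-0.63), and Tspan18, a tetraspanin (-1.31), with Fibcd1 and Amigo2 described below. Of these 10 calls 7 held under each of the 18 alternatives, and Ddn, Fibcd1 and Gng7 missed the threshold in the joint fit over all 28 libraries.

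**Figure D2:**
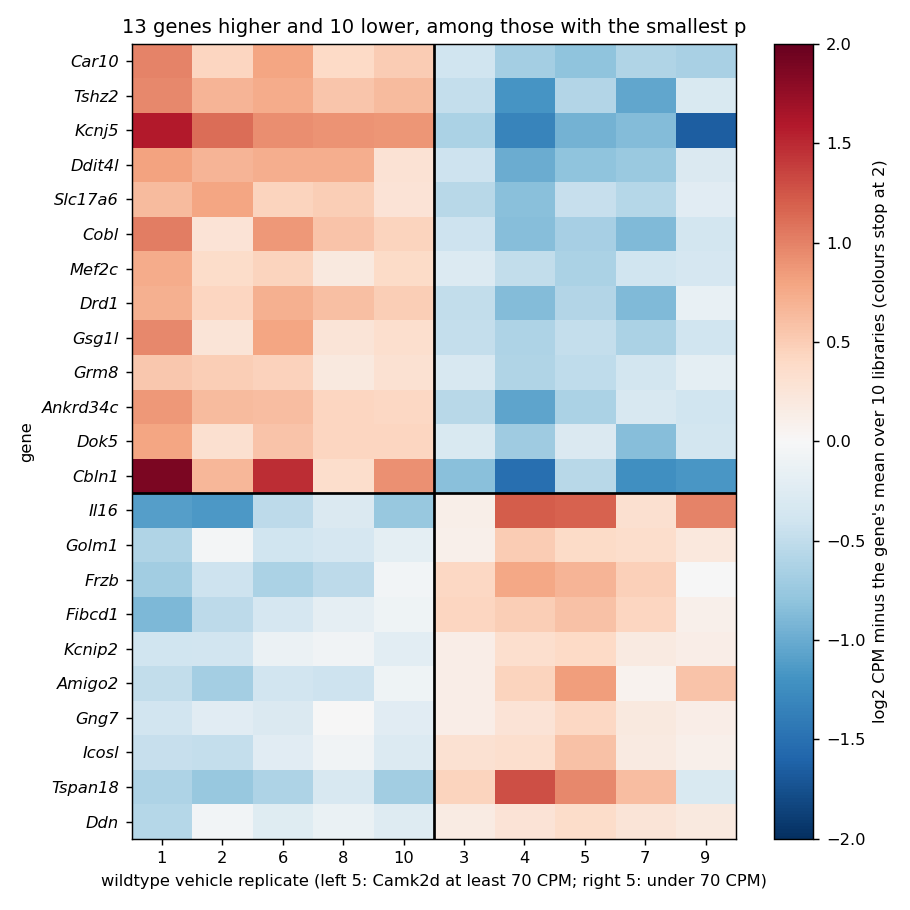
Log2 CPM minus the gene's mean over the 10 wildtype libraries (colour, cut at 2 in either direction) for 13 of the 15 higher genes and the 10 lower genes with the smallest p; the 5 high libraries are left of the line and the 5 low libraries right of it. For Car10 the high libraries lie at 43.4 to 65.3 CPM and the low ones at 18.8 to 24.9 CPM; for Ddn the high libraries lie at 1483 to 2131 CPM and the low ones at 2470.4 to 2856 CPM.

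The genes whose levels followed Camk2d most closely over the 10 wildtype libraries were Prkacb, a catalytic subunit of protein kinase A (Pearson r of log2 CPM 0.995), Mef2c (0.993), Car10 (0.992), Arpp21, a cyclic AMP-regulated phosphoprotein (0.990), and Ctps2, a CTP synthase (0.982). The most opposite were Camk2a (-0.986), Ddn (-0.980) and Gng7 (-0.969). The Ctps2 call (log2 fold change 0.24, edgeR adjusted p = 0.0493) held in 6 of 18 alternatives. Since the libraries form 2 clusters of Camk2d, these r are a measure of likeness only. Prkacb averaged 371 ± 28.5 CPM in the high and 261 ± 15.5 CPM in the low libraries (SD, n = 5 each), and Arpp21 285 ± 24.9 and 193 ± 11.4 CPM.

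Within the kinase family itself the subunits moved in different directions. Camk2a, the alpha subunit, was lower in every high library, at 3178, 3719, 3667, 3786 and 3823 CPM, against 4399, 4768, 4859, 4777 and 4636 CPM in the low libraries (log2 fold change -0.39, SE 0.0694, edgeR adjusted p = 0.00665). Camk2g, the gamma subunit, averaged 248 ± 20.4 CPM in the high and 203 ± 11.2 CPM in the low libraries (SD, n = 5 each; log2 fold change 0.26, adjusted p = 0.0436), a call that held in 7 of 18 alternatives. Camk2b, the beta subunit, averaged 1113 ± 86.7 and 1319 ± 76.4 CPM and missed the threshold (log2 fold change -0.27, adjusted p = 0.0581). The endogenous inhibitors Camk2n1 and Camk2n2 were higher, by 0.52 (SE 0.0845, adjusted p = 0.00373) and 0.55 (SE 0.119, adjusted p = 0.0203) on the log2 scale, and the second call held in 13 of 18 alternatives. In all, 3 of the 16 tested family members rose, against 2.09% of all tested genes, and 1 fell, against 1.16%, with a median log2 fold change of 0.04, against -0.0036 over all tested genes. The upstream kinases Camkk1 and Camkk2 and the calmodulin genes Calm2 and Calm3 did not pass the test.

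Of 7 genes that mark cortical neurons 4 rose, against 2.09% of all tested genes, and none fell. All 7 had positive log2 fold changes (median 0.65). Mef2c, a transcription factor of neuronal differentiation, was at 214, 166, 174, 147 and 167 CPM in the high and 106, 91.6, 82.9, 97.9 and 102 CPM in the low libraries (log2 fold change 0.83, SE 0.0939, edgeR adjusted p = 0.000464). Cux2, an upper-layer transcription factor, was 0.96 higher (SE 0.125, adjusted p = 0.00110), Scnn1a, a sodium channel subunit of layer 4 neurons, 0.84 (SE 0.174, adjusted p = 0.0160) and Tbr1, a transcription factor of glutamatergic neurons, 0.65 (SE 0.123, adjusted p = 0.00979). The Cux2 and Tbr1 calls held in 17 of 18 alternatives and the Scnn1a call in 16. Rorb, Lamp5 and Fezf2, the other cortical markers, had log2 fold changes of 0.19, 0.23 and 0.02 and did not pass. The list's summed level was 422 to 544 CPM in the high and 288 to 326 CPM in the low libraries. The tissue is bulk, so fewer cells of a type and less RNA per cell cannot be told apart.

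Single striatal and thalamic markers passed. Of the 11 striatum genes 2 rose, against 2.09% of all tested genes, and none fell. Drd1, the dopamine D1 receptor, was at 9.02, 7.36, 9.03, 8.36 and 7.73 CPM in the high and 3.89, 3.02, 3.68, 2.98 and 4.96 CPM in the low libraries (log2 fold change 1.13, SE 0.133, edgeR adjusted p = 0.000600). Drd2, Adora2a, Ppp1r1b and Penk, also genes of striatal projection neurons, had log2 fold changes of -0.30, -0.08, -0.23 and -0.17 and did not pass. Tac1, Gpr6 and Rgs9 had log2 fold changes of 0.40, 0.91 and 0.14 and did not pass either. Of the 11 genes 5 had positive and 6 negative values, and the list's median was -0.01. Of the 16 thalamus genes 3 rose, against the same 2.09%, and 1 fell, against 1.16% (median 0.19). Slc17a6, the vesicular glutamate transporter VGLUT2, was at 64.0, 71.5, 56.5, 58.1 and 50.2 CPM in the high and 28.3, 23.3, 30.1, 27.9 and 35.5 CPM in the low libraries (log2 fold change 1.02, SE 0.107, adjusted p = 0.000260). Rgs16 and Rora rose by 0.44 and 0.39, calls that held in 11 and 7 of 18 alternatives, while Lhx9, a transcription factor of the thalamus, fell (log2 fold change -1.15, SE 0.231, adjusted p = 0.0132). The Lhx9 call held in 16 of 18 alternatives. Prkcd, a defining thalamic kinase, averaged 11.2 ± 1.77 CPM in the high and 13.2 ± 4.09 CPM in the low libraries (SD, n = 5 each) and did not pass. Lef1, Ramp3, Calb2, Zic1 and Tcf7l2 had positive log2 fold changes of 0.43, 0.38, 0.24, 0.24 and 0.14 and did not pass either. Of the 16 thalamus genes 11 had positive and 5 negative values. Of 5 tested habenula genes only Nwd2 rose (0.47), against the same 2.09%, a call that held in 10 of 18 alternatives. The median of that list was -0.06.

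Markers of the hippocampal fields went in both directions. Of the 6 CA1 genes 1 rose, against 2.09% of all tested genes, and 1 fell, against 1.16%. Among the 6 CA1 genes Fibcd1, a transmembrane protein of CA1 pyramidal neurons (ENSMUSG00000026841), was at 154, 198, 226, 251.8 and 271 CPM in the high and 385, 401, 429.9, 384 and 308 CPM in the low libraries (log2 fold change -0.82, SE 0.134, edgeR adjusted p = 0.00414). Wfs1, a common CA1 marker, averaged 316 ± 29.5 CPM in the high and 274 ± 10.2 CPM in the low libraries (SD, n = 5 each; log2 fold change 0.18) and did not pass. Spink8, Pou3f1 and Mpped1 had log2 fold changes of -0.65, -0.22 and -0.05 and did not pass either. The CA1 list had 2 positive and 4 negative values and a median of -0.14. Summed CA1 markers were 1027 to 1215 CPM in the high and 1194 to 1352 CPM in the low libraries, with Mpped1 and Wfs1 giving most of the sum; how specific these genes are to CA1 was not tested. In CA2, Rgs14, a brake on plasticity, fell by 0.57 on the log2 scale and Amigo2, an adhesion molecule, by 0.86. These were 2 of the 6 tested genes, against the same 1.16%, and the list's median was -0.46. Of the 6 tested CA3 genes only Prss35 rose (0.46), against the same 2.09%, a call that held in 14 of 18 alternatives. The CA3 list leaned the other way, with 4 of 6 values negative and a median of -0.14. Its lowest member, Cdh24, was at -0.43 and did not pass.

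All 9 dentate granule cell genes had negative values (median log2 fold change -0.66), and 3 fell, against 1.16% of all tested genes. For Tdo2, with few counts at 0.438 CPM in the high and 1.33 CPM in the low libraries on average, the sign is a description only. Dsp, desmoplakin, was at 2.34, 2.11, 3.25, 4.99 and 2.51 CPM in the high and 6.01, 27.6, 11.1, 18.3 and 5.80 CPM in the low libraries (log2 fold change -2.18, SE 0.465, edgeR adjusted p = 0.0293). Prox1, the transcription factor that sets granule cell identity, was at 18.9, 18.2, 19.5, 20.6 and 16.1 CPM in the high and 25.3, 48.8, 30.6, 38.5 and 21.0 CPM in the low libraries (log2 fold change -0.84, SE 0.178, adjusted p = 0.0186). The sets did not overlap for these genes, but the low libraries differed widely among themselves, and libraries 4 and 7 held the most of both. Glis3 fell by 0.68. The Prox1 call was lost without low library 7 or without the low-count filter, and the Dsp and Glis3 calls held in 10 of 18 alternatives.

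Among glial and vascular markers, 2 of 10 microglia genes fell, against 1.16% of all tested genes, and none rose. None of the 9 astrocyte, 11 oligodendrocyte, 6 oligodendrocyte precursor, 11 endothelial, 8 mural or 4 tested erythroid genes passed, with list medians of -0.04, -0.08, -0.12, -0.19, -0.21 and 0.40. All 10 microglia genes had negative values (median -0.20), and Cx3cr1, the fractalkine receptor, and Csf1r, the receptor of colony stimulating factor 1, fell by 0.35 and 0.28 on the log2 scale. Of 11 inhibitory neuron genes 1 fell, Npy by 0.37, and the list had 4 positive and 7 negative values (median -0.07). All 5 tested ependymal genes had negative values (median -0.50), and 1 passed, Foxj1 at -0.50. Both counts stand against the same 1.16% of all tested genes. Tmem212 and Ccdc153 averaged 0.197 and 0.388 CPM in the high libraries, against 0.616 and 0.981 CPM in the low libraries. The filter may have kept these ependymal genes through the low libraries, so their signs, and with them the list's median, are a description only. The calls of Npy, Foxj1 and Csf1r were lost in 8 or more of 18 alternatives, most of them with a library left out. Of 7 tested choroid plexus genes only Prlr, the prolactin receptor, rose (0.97, SE 0.142, edgeR adjusted p = 0.00189), against 2.09% of all tested genes. The Prlr call held in 17 of 18 alternatives. The other 6 choroid plexus genes had negative values, none of which passed, and the list's median was -0.58. The defining gene Ttr averaged 7.01 ± 3.99 CPM in the high and 14.6 ± 6.16 CPM in the low libraries (SD, n = 5 each) and did not pass. The 10 fibroblast genes had a median of 0.08 and none passed. The part of any of these cell types in the difference of Camk2d was not tested.

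**Figure D3:**
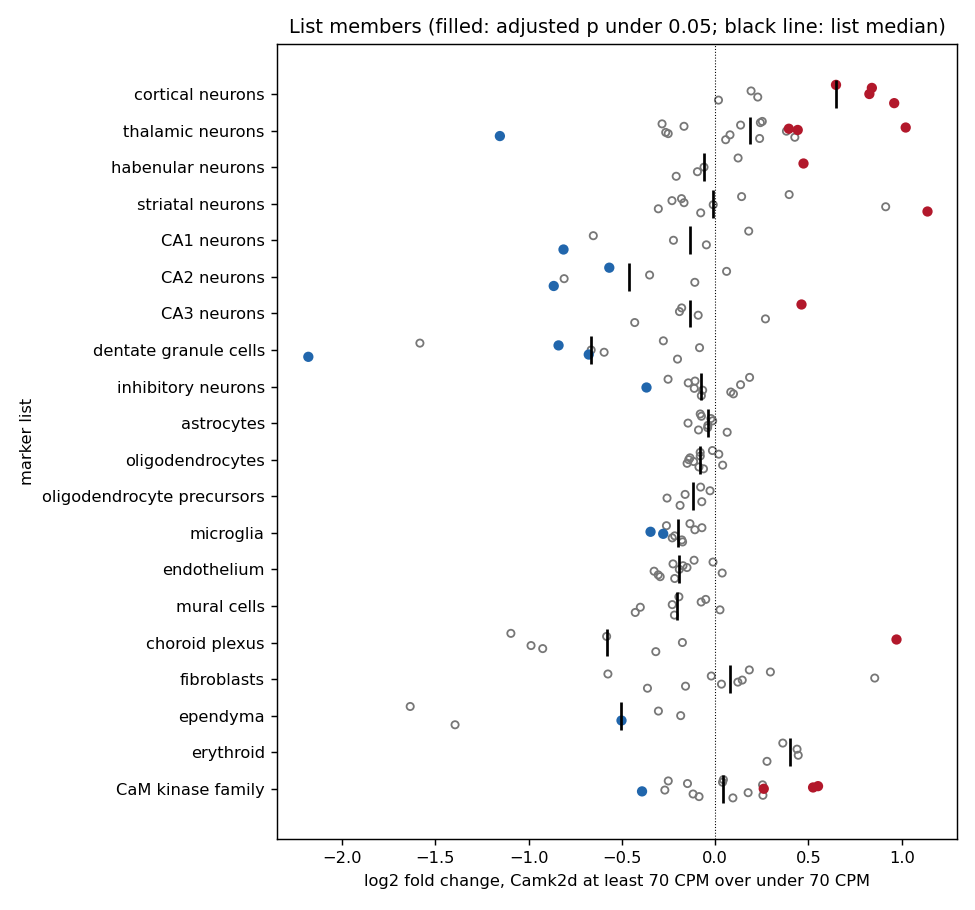
Log2 fold change, high over low libraries, of tested members of 19 cell type lists and of the kinase family; filled points passed an adjusted p of 0.05 and the black line is the median of all tested members of the list, a few of which are not drawn. All 7 cortex genes lie above 0 and all 9 dentate genes below it, and the filled point drawn among the striatal genes is Drd1 (1.13).

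Synaptic and channel genes showed single changes. Of 24 glutamate receptor and transporter genes Grm2 and Grm8, presynaptic metabotropic receptors, rose, against 2.09% of all tested genes, and Gria1, an AMPA receptor subunit, fell, against 1.16%. Grm2 was at 98.0, 42.3, 80.2, 56.4 and 56.1 CPM in the high and 35.9, 35.8, 36.2, 29.3 and 33.2 CPM in the low libraries (log2 fold change 0.94, SE 0.169, edgeR adjusted p = 0.00726). Its call held in 16 of 18 alternatives. Gria1 averaged 976 ± 136 CPM in the high and 1277 ± 81.0 CPM in the low libraries (SD, n = 5 each; log2 fold change -0.41, SE 0.0983, adjusted p = 0.0316), and its call held in 11 of 18 alternatives. Among 22 potassium channel genes Kcnc4 rose by 0.53 and Kcnip2 fell by 0.50, and among 17 calcium channel genes Cacnb4, an auxiliary subunit, rose by 0.46, set against the same 2.09% and 1.16%. The Kcnc4 call held in 7 of 18 alternatives and the Cacnb4 call in 16. None of the 15 immediate early genes, 14 GABA receptor genes or 7 tested mitochondrial genes passed, with medians of -0.15, -0.0022 and 0.08.

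The 18 transgenic libraries, which had no part in forming the sets, were used to ask whether the same genes go with Camk2d there. A slope on log2 Camk2d, the log2 change of a gene per doubling of Camk2d, was fitted with edgeR and the agent as a term. Of 17477 genes 327 (1.87%) passed, 233 with a positive (1.33%) and 94 with a negative slope (0.538%). Of the 540 wildtype calls 526 (97.4%) had the same sign, against 67.1% of the 16039 genes not called in wildtype. Both tests called 157 genes, which are 29.1% of the wildtype and 48.0% of the transgenic calls, and all 157 had the same sign. They comprised 130 of the 347 higher and 27 of the 193 lower genes. The transgenic count rested on the 2 libraries farthest from the median Camk2d, vorinostat 5 and vehicle 7: without them 16 positive and 2 negative slopes passed. Within vorinostat libraries 1 positive and 0 negative slopes passed, and within vehicle libraries 164 and 85. Without the 3 vorinostat libraries with over 5% mitochondrial counts, 447 positive and 277 negative slopes passed.

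**Figure D4:**
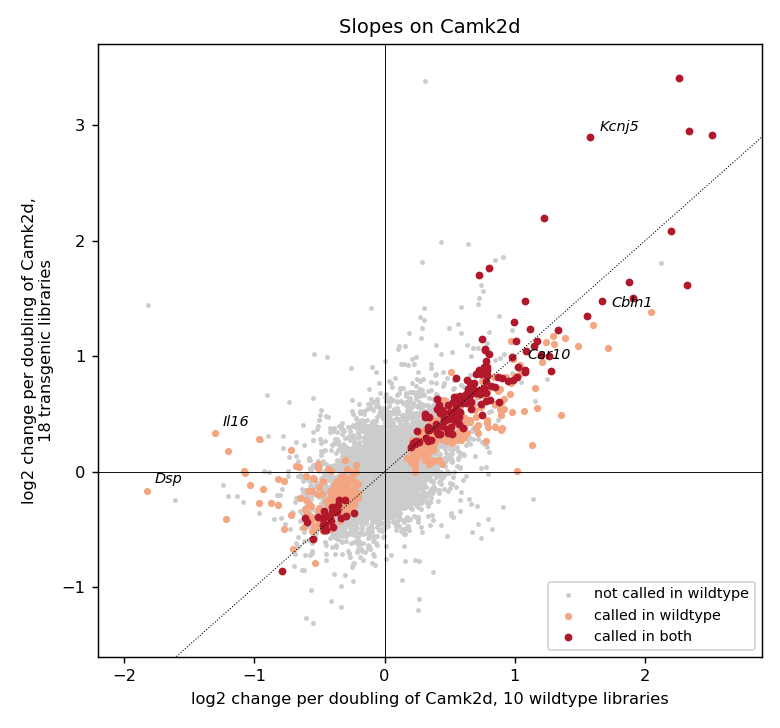
Slope on log2 Camk2d in the 10 wildtype libraries (x axis) against that in the 18 transgenic libraries (y axis), both in log2 change per doubling of Camk2d, for the genes tested in both; colours give genes called between the wildtype sets and those also called in transgenic libraries, and the dotted line marks equal slopes. Of the 540 wildtype calls 526 have the same sign on both axes, and Car10 lies near the dotted line at 1.01 and 1.13.

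Most leading higher genes also passed in transgenic libraries. Of the 15 leading higher genes all 15 had positive transgenic slopes and 11 passed the test. Car10 ranged from 20.8 to 56.3 CPM in vorinostat and from 19.2 to 57.7 CPM in vehicle libraries, with a slope of 1.13 (SE 0.112, edgeR adjusted p = 1.90e-05). The slope of Cbln1 was 1.48 (SE 0.177, adjusted p = 0.000123), of Mef2c 0.71 (SE 0.114, adjusted p = 0.00225) and of Drd1 0.61 (SE 0.105, adjusted p = 0.00386). Slc17a6, Grm8 and Ankrd34c did not pass (adjusted p 0.0800 to 0.175). Of the 10 leading lower genes 8 had negative slopes, and Ddn (-0.50, SE 0.0851, adjusted p = 0.00329) and Gng7 (-0.42, SE 0.0902, adjusted p = 0.0163) passed. Il16 and Amigo2 had slopes of 0.34 and 0.05.

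Across the 18 transgenic libraries Car10 had a Pearson r of 0.889 with Camk2d (permutation p = 1e-05, the smallest that 100000 resamples can give, adjusted 0.000427 over 256 correlations) and a Spearman rho of 0.767 (adjusted permutation p = 0.00272). Its r was 0.817 without the 2 farthest libraries, 0.882 within vorinostat and 0.949 within vehicle. Ddn had r = -0.833 (adjusted permutation p = 0.000427) and rho = -0.847 (adjusted permutation p = 0.000731), with r = -0.798 without those 2 libraries. Camk2a had r = -0.731 and rho = -0.717 (adjusted permutation p = 0.00434 and 0.00599), with r = -0.708 without them. Il16 had r = 0.0734 and rho = 0.193 (adjusted permutation p = 0.802 and 0.498).

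**Figure D5:**
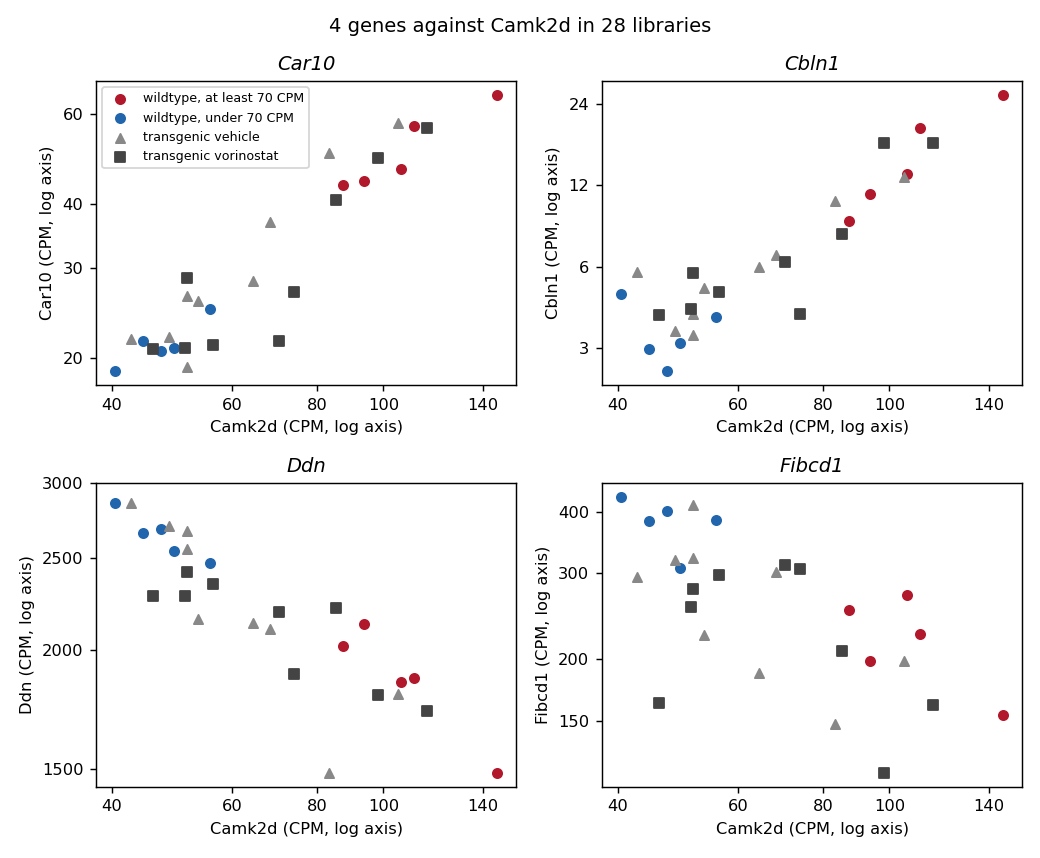
Level of Car10, Cbln1, Ddn and Fibcd1 (CPM, log axis) against Camk2d (CPM, log axis) in all 28 libraries. In each group Car10 and Cbln1 are lowest among libraries with low Camk2d and highest among those with high Camk2d, Ddn runs the other way, and Fibcd1 is more scattered among transgenic libraries.

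Several lists had members that passed in transgenic libraries, where 1.33% of all tested genes passed with a positive and 0.538% with a negative slope. Of 11 striatum genes 2 passed with positive slopes, Drd1 among them, and of 7 cortex genes 2, Mef2c and Cux2. In the kinase family 2 of 16 passed with positive slopes, Camk2n2 and Camk4, a kinase that signals to the nucleus. Camk2a had a slope of -0.29 (SE 0.0755, edgeR adjusted p = 0.0521). None of the 9 dentate genes passed, and their median slope was 0.04. Of 16 thalamus genes 3 passed with positive slopes, Zic1, Ramp3 and Rora, and of 6 CA1 genes 2 with negative ones, Spink8 and Pou3f1. Of the 10 fibroblast genes 6 passed, all positive, against 1.33% of all tested genes: Fmod (1.62), Ogn (1.81), Slc6a13 (0.99), Col3a1 (0.98), Igf2 (0.81) and Col1a2 (0.93). Xist was over 100 CPM in 3 of 9 transgenic vehicle libraries, and these held the 3 highest Camk2d levels of that group, at least 68.2 CPM against at most 64.4 CPM in the other libraries of that group. Among vorinostat libraries it was over 100 CPM in 5 of 9, with Camk2d as low as 51.1 CPM, and a library under that Xist level reached 85.3 CPM of Camk2d. With Xist as a covariate 78 positive and 21 negative slopes passed.

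The difference of the slopes, wildtype minus transgenic, was tested over all 28 libraries. No gene of 17904 (0%) passed in edgeR, and 411 had an unadjusted p under 0.05. Il16 had the difference -1.63 (SE 0.372, adjusted p = 0.828), Prox1 -0.70 (SE 0.263, adjusted p = 1) and Car10 -0.12 (SE 0.133, adjusted p = 1). The dentate, fibroblast and Il16 results were therefore not shown to differ between wildtype and transgenic libraries.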

How the data were processed

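The counts are whole numbers of reads per gene as the authors deposited them, made with STAR 2.5.2b and featureCounts of Subread 1.5.1 on mm10, per the submitters' processing notes; the sources used here give neither the annotation release nor the strand setting, so genes that overlap others have uncertain counts. The authors also deposited adjusted expression values, read here as a score on a log scale of unstated base, which were used only as an alternative. Totals were 20230085 to 33191857 counts per library. For lists, CPM is summed over members. No file pair was identical and the 117 pairs within groups differed by more than sampling noise.

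Symbols and mm10 coordinates came from a GENCODE annotation (48349 of 48709 identifiers matched). Genes were filtered with edgeR's filterByExpr (minimum count 10, minimum total 15), scaled by TMM and tested in edgeR 4.0.16 (R 4.3.3) by its robust quasi-likelihood test, with Benjamini-Hochberg adjustment over all genes of a comparison and a threshold of 0.05. DESeq2 1.42.0 and limma 3.58.1 were alternatives. Correlations used log2 CPM with a prior count of 2. On simulated counts for the wildtype comparison (16624 genes), 34 of 67 genes changed by 0.5, 65 of 67 changed by 1 and 66 of 66 changed by 2 on the log2 scale were recovered, with 6 false calls. For the transgenic slope (17383 genes) the corresponding numbers were 54 of 67, 66 of 67 and 66 of 66, with 8 false calls. In these simulations each gene was drawn on its own, with the same spread setting for every gene. Recovery and false calls in the real libraries may therefore differ.

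The libraries were sorted by a measured gene, so the tests describe what goes with Camk2d in these libraries and are no test of a treatment. The split, the gene lists and the tests were chosen with earlier results of these data known. Named genes are the 15 higher and 10 lower genes with the smallest p at a mean of at least 1 CPM, list members past the threshold and extremes of lists described, the 5 most like and 3 most opposite to Camk2d at a mean of at least 5 CPM, and Xist, Camk2a, Camk2b and Camk2g; predicted genes were left out. Further genes named in the lists for their roles, and those in the closing observations, were chosen after their values were seen. A few genes that meet these rules are not reported here; they stay in the counts and medians. A deposited table of coexpression modules was not used.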

Additional observations from a re-analysis of the deposited data

Results flagged for a closer look

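Dixon's test at 95% was applied to 146 groups of values and marked 12 (8.22%), where chance marks about 1 in 20. Among library properties, wildtype vehicle 5 had a total of 33191857 counts against at most 25828256 in the others, and wildtype vehicle 2 had 6.41% mitochondrial counts and 101 CPM of hemoglobin transcripts. Within the high libraries, replicate 1 stood apart for Kcnj5 (2.61 CPM), Camk2a (3178 CPM) and Gria1 (743 CPM), the last 2 being the lowest of the high libraries. Replicate 10 stood apart for Ddit4l (12.5 CPM), Chrna3 (0.864 CPM) and Lum (2.51 CPM), and replicate 2 for Pdzd2 (19.3 CPM) and P2ry12 (46.6 CPM). Within the low libraries, replicate 3 was above the others for Arpp21 (213 CPM against at most 191 CPM), and it also held the most Camk2d of that set.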

How the results depend on the processing

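No paired analysis was possible because both sets lie within wildtype vehicle and share no replicate number. Of the 540 wildtype calls 0 changed direction under any alternative. This and the signs given below are a description only, since every alternative uses libraries that chose the calls. Leaving out single libraries gave 180 to 492 higher and 48 to 223 lower genes. DESeq2 called 356 lower genes, Camk2d as a continuous term 340, the mitochondrial share as a covariate 319 and the sets without the libraries next to 70 CPM 104. A joint fit over 28 libraries called 162 higher and 57 lower. Limma on the authors' adjusted values called 0 higher and 0 lower genes, with 3262 at an unadjusted p under 0.05, and 539 of 539 wildtype calls in that table had the same sign. The cause of these shifts was not tested.

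Transgenic slopes passed for 369 positive and 184 negative genes with DESeq2, 60 negative without the low-count filter, 16 and 2 without the 2 farthest libraries, 1 and 0 in vorinostat alone, and 500 and 446 with the mitochondrial share. Chosen after seeing the data, leaving out the 3 libraries with over 5% mitochondrial counts gave 447 and 277, and Xist as a covariate 78 and 21. Values that changed sign had not passed the test in the comparison concerned; Amigo2, Golm1 and Tspan18 passed in wildtype and kept their sign there. In wildtype, leaving out single libraries gave -0.0060 to 0.048 for Fezf2, -0.26 to 0.00936 for P2ry12, -0.0974 to 0.13 for Pcp4, -0.17 to 0.085 for Pdzd2 and -0.23 to 0.46 for Xist, P2ry12 was 0.050 with the authors' values, and Xist -0.13 and -0.0431 with the mitochondrial and Xist covariates. In transgenic libraries Amigo2 and Tspan18 had slopes of -0.067 and 0.053 in vorinostat alone, and Golm1 and Tspan18 of 0.00078 and 0.043 with Xist as a covariate. The slope difference had 0 calls in every alternative.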

Other observations

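Further genes, most of low level, were named after their values were seen. The low libraries held few counts of the first 3 of them, which entered the test through the high libraries, so all levels are given as a description with no fold or test. Esr2, estrogen receptor beta, was at 1.37, 0.808, 0.844, 0.813 and 1.47 CPM in the high libraries, against 0.216, 0.0989, 0.121, 0.0432 and 0.0794 CPM in the low libraries. Mab21l1, a developmental regulator, averaged 1.78 ± 0.617 CPM in the high and 0.218 ± 0.100 CPM in the low libraries (SD, n = 5 each). Ctxn3, a cortexin, averaged 3.01 ± 1.27 CPM in the high and 0.394 ± 0.310 CPM in the low libraries (SD, n = 5 each). Dsc3, a desmosomal cadherin, averaged 12.1 ± 3.93 CPM in the high and 1.77 ± 1.81 CPM in the low libraries (SD, n = 5 each), the opposite order to desmoplakin, its partner in desmosomes.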
